A study of Saccharomyces cerevisiae BY4741 with 24 samples.

Results

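The autophagy-related (ATG) genes of the budding yeast Saccharomyces cerevisiae were followed through a caloric restriction time course. The genes were taken by name: every probe set whose annotated symbol is ATG and a number, 34 genes, and VPS15, VPS30 and VPS34, which encode shared subunits of the autophagy lipid kinase. Together they are 37 of the 5449 S. cerevisiae genes on the array, each read by 1 probe set. The strain was BY4741, a MATa laboratory strain that needs histidine, leucine, methionine and uracil from the medium. The labels name no deletion, transgene or drug in any group, and all cultures were started in the rich medium YPD and shaken at 30 °C. Control cultures held 2% glucose and calorie-restricted cultures 0.5% glucose, and both were harvested 12, 18, 24 and 48 h after inoculation. RNA of 3 biological replicates of each of the 8 groups was hybridized to 24 Affymetrix Yeast Genome 2.0 arrays. The labels describe the harvests as spanning the period in which restricted cells gain their potential for long life. The comparisons ask how the restricted cultures differ from the controls at each time, whether that difference changes with time, and how each medium changes from harvest to harvest.

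Autophagy wraps part of the cytoplasm in a growing membrane, closes it into an autophagosome, and delivers the contents to the vacuole, the yeast counterpart of the lysosome, where they are broken down and reused. While nutrients are plentiful, the kinases TORC1 and PKA hold the pathway back; when they are silenced, the Atg1 kinase complex assembles, Atg9 vesicles and a lipid kinase build the membrane, and a pair of ubiquitin-like conjugation systems attaches Atg8 to it. Receptor proteins load chosen cargo such as mitochondria, peroxisomes or endoplasmic reticulum. In growing yeast the same machinery also runs the cytoplasm-to-vacuole targeting (Cvt) pathway, which brings hydrolases to the vacuole. Yeast that lack core ATG genes lose viability early when starved or kept in stationary culture. Only transcripts were measured here, not protein or the flow of material to the vacuole.

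All values are log2 array values, and a difference is the mean of 3 arrays in 0.5% glucose minus that of 3 arrays in 2% glucose, given ± its standard error (SE) from limma, a linear model fitted to all 5449 genes. A gene was called higher or lower at a Benjamini-Hochberg adjusted p under 0.05. The deposited values were forced to the same distribution on every array, so a gene counts as higher only against the rest of its own culture's RNA. The array also carries 12 probe sets for poly-A spike-ins, bacterial RNAs usually added before labelling, and these were not level on this scale. The mean of the spike-ins on single arrays ran from 3.70 to 5.06, against the background of 2.29 defined below. Among the arrays of 0.5% glucose at 18 h it ran from 3.79 to 4.45. Whether spike-ins were added to these RNAs was not tested, so their scale is not taken as an absolute one. The mean of the spike-ins differed by -0.40 ± 0.11 for the harvest of 12 h, -0.16 ± 0.26 for that of 18 h, -0.27 ± 0.23 for that of 24 h and 0.49 ± 0.16 for that of 48 h. Setting them equal on every array adds the opposite constant to every gene's difference in that comparison. It also carries the spread of the spike-ins between arrays into every gene. The SE of a difference between media was 0.22 for each member on that scale, against a median of 0.06 on the deposited one. Whether a call was lost there through the shift or the wider SE was not tested. A call below is on the deposited scale unless the spike-in scale is named. The spike-in value stands beside each called difference between media printed below that it turns. The order of genes within a comparison is the same on both scales. All 37 autophagy genes read above the background, the 95th percentile (2.29) of 1746 probe sets for a yeast not in the sample, Schizosaccharomyces pombe, in all 8 groups. Of the genes this strain should lack or carry in part, URA3 was above that background on 0 of 24 arrays, LEU2 on 4 and HIS3 on 24. Its HIS3 deletion is partial, and whether the probes lie inside it was not tested. The MATa genes MFA1 and STE2 were above background on all 24 arrays, but so was STE3, a gene of MATalpha cells. MF(ALPHA)1, another, was on 20, so passing the background did not single out the labelled mating type. Group means were 6.82 to 10.03 for MFA1 and 6.66 to 9.34 for STE2. They were lower for the MATalpha genes, 3.42 to 5.93 for STE3 and 2.04 to 4.74 for MF(ALPHA)1. Levels of different probe sets were not tested against each other. The first replicate of 2% glucose at 12 h stood apart over all 5449 genes. Its mean absolute deviation from its group's median was 0.12, against 0.03 to 0.08 on the other arrays. Among the members it read low for, this array held ATG13 (5.62 against 5.86 and 5.91), ATG17, ATG20, ATG23, ATG26, ATG29, ATG38, VPS30 and ATG16. It read high for others, among them ATG10 (5.32 against 5.01 and 4.88) and ATG33 (9.36 against 9.12 and 9.10).

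On the deposited scale most autophagy genes were lower than the controls in restricted cultures of 12 h and higher in those of 48 h. On the spike-in scale their median difference was only 0.06 at 12 h and -0.04 at 48 h. At 12 h, 29 of the 37 were lower in 0.5% glucose, 3 were higher (ATG5, ATG15 and ATG13) and 5 were not called (ATG4, ATG7, ATG8, ATG10 and ATG17). Of all genes, 41.2% were lower and 32.2% higher at that time. At 18 h, 8 were higher, against 25.5% of all genes, and 9 lower, against 24.8%. At 24 h, 16 were higher (31.6% of all genes) and 8 lower (31.4%). At 48 h, 25 were higher, against 46% of all genes, and 7 were lower, against 37.8%: ATG18, ATG19, ATG22, ATG27, ATG41, VPS15 and VPS34. The 37 genes had a median difference of -0.34 (12 h), -0.02 (18 h), 0.01 (24 h) and 0.45 (48 h), where the median over all genes was -0.05, 0.00, 0.00 and 0.08. On the spike-in scale the members' median was 0.06, 0.14, 0.28 and -0.04, and that of all genes 0.35, 0.16, 0.27 and -0.41. The sign of the members' median thus turned at 12, 18 and 48 h. The distance between the autophagy genes and all genes was -0.29 at 12 h and 0.37 at 48 h. It cannot differ between the scales, since the same constant is added to every gene. The arrays of the groups did not overlap for 26 members at 12 h (72.5% of all genes), 20 at 18 h (56.9%), 29 at 24 h (70.4%) and 35 at 48 h (85.1%). Without the first replicate of 2% glucose at 12 h, 3 members were higher and 29 lower at 12 h, with a median of -0.39; of the single calls, ATG12 (-0.15) and ATG13 (0.06) were lost, and ATG10 (0.19, higher) and ATG17 (-0.39, lower) were gained. Most of these calls were lost on the spike-in scale. At 12 h, 3 members were higher there (ATG5, ATG13 and ATG15; 36.1% of all genes) and 2 lower (ATG40 and ATG41; 3.58%). At 18 h, 2 were higher (ATG7 and ATG15; 3.43%) and 0 lower (1.08%), with 2 lower by limma's unadjusted p. At 24 h, 10 were higher (19.5%), namely ATG4, ATG5, ATG7, ATG12, ATG14, ATG15, ATG16, ATG20, ATG21 and ATG29, and 0 lower (2.75%), with 0 also by the unadjusted p. At 48 h, 4 were higher (ATG11, ATG14, ATG34 and ATG36; 9.47%) and 11 lower (45.8%): the 7 above and ATG5, ATG13, ATG31 and ATG38, the last 4 at -0.59, -0.58, -0.53 and -0.56. Since RNA came from whole cultures, a change in every cell and a change in the share of cells in some state cannot be told apart.

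**Figure D1:**
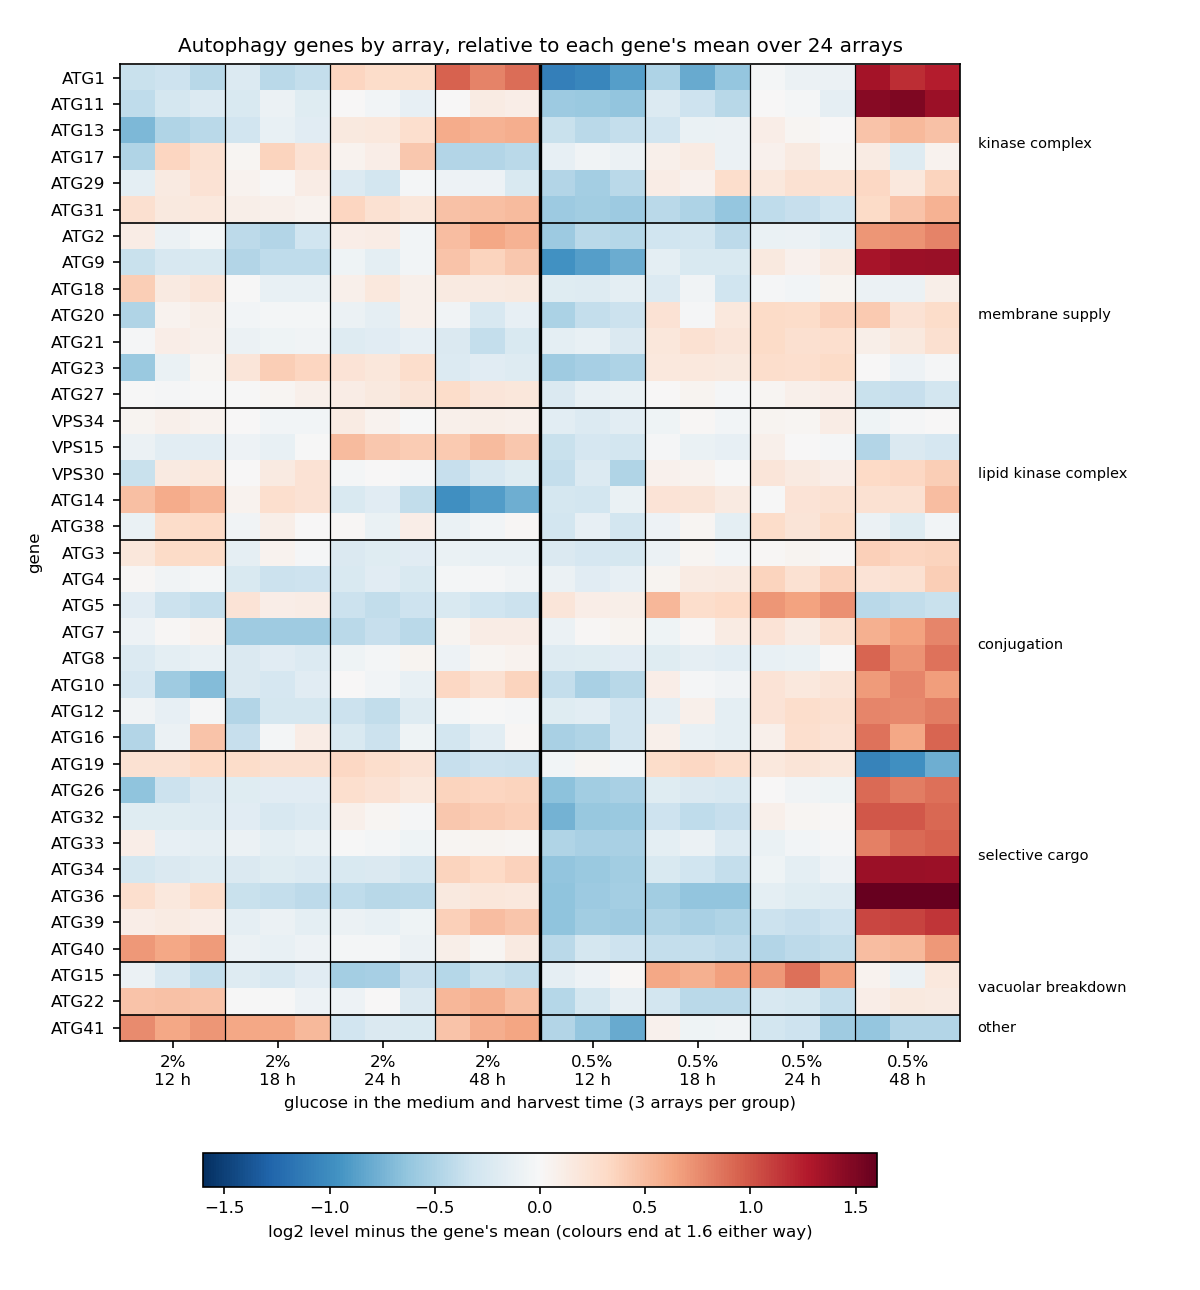
Heat map of the 37 autophagy genes (rows, grouped by role) on the 24 arrays (columns, grouped by glucose and time, 3 arrays each); colour is the log2 value minus that gene's mean over all arrays, blue below and red above it. Restricted arrays of 12 h are the lowest group for 19 genes and restricted arrays of 48 h the highest for 18.

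By gene, 19 members were lower at 12 h and higher at 48 h, a pattern of 17.4% of all genes, and 0 members showed the opposite one, which 12.2% of all genes showed. The 19 are ATG1, ATG2, ATG3, ATG9, ATG11, ATG12, ATG14, ATG16, ATG20, ATG21, ATG26, ATG29, ATG32, ATG33, ATG34, ATG36, ATG39, ATG40 and VPS30. The 19 span the kinase complex, membrane supply, the lipid kinase, conjugation and selective cargo. Scaled to the spike-ins, 0 members showed this pattern by limma's adjusted or unadjusted p, as did 0.0918% of all genes by the adjusted one. Members higher at 18, 24 and 48 h alike numbered 7, against 11.7% of all genes: ATG4, ATG7, ATG9, ATG10, ATG12, ATG15 and ATG21. That count was also 0 on the spike-in scale by either p (0.716% of all genes). Restricted cultures of 48 h held the highest group mean of 18 members (36.6% of all genes), and restricted cultures of 12 h the lowest of 19 (18.2%). The range of the 8 group means had a median of 1.12 on the log2 scale over the members and 1.11 over all genes. Its extremes were 0.28 for VPS34 and 2.40 for ATG36, which encodes the peroxisome receptor. Within a group the SD over 3 arrays had a median of 0.05 for the members and 0.06 for all genes.

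The Atg1 kinase complex starts autophagosome formation. Of its 6 genes, 4 were lower and 1 higher at 12 h (median -0.43), and 4 were higher and 0 lower at 48 h (median 0.40); on the spike-in scale those medians were -0.03 and -0.09. For these counts and those of the groups that follow, the shares of all genes were 32.2% higher and 41.2% lower at 12 h. They were 25.5% and 24.8% at 18 h, 31.6% and 31.4% at 24 h, and 46% and 37.8% at 48 h. ATG1 (YGL180W) encodes the kinase itself. ATG1 in 2% glucose read 7.08, 7.10 and 6.98 at 12 h, 7.21, 6.998 and 7.05 at 18 h, 7.77, 7.73 and 7.72 at 24 h, and 8.37, 8.22 and 8.32 at 48 h. ATG1 in 0.5% glucose read 6.33, 6.38 and 6.54 at 12 h, 6.93, 6.63 and 6.81 at 18 h, 7.40, 7.33 and 7.34 at 24 h, and 8.76, 8.61 and 8.68 at 48 h. The level climbed in both media from 18 h on, from a lower start in restricted culture, and the media did not overlap at any of the 4 times. ATG1 was lower at 12 h (-0.63 ± 0.07), 18 h (-0.29 ± 0.07) and 24 h (-0.38 ± 0.07) and higher at 48 h (0.38 ± 0.07), the last of which was -0.11 on the spike-in scale. It rose by 1.33 ± 0.07 between 24 and 48 h in 0.5% glucose.

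ATG13 (YPR185W) encodes the subunit through which TORC1 holds the complex back. ATG13 in 2% glucose read 5.62, 5.86 and 5.91 at 12 h, 6.03, 6.21 and 6.16 at 18 h, 6.49, 6.51 and 6.60 at 24 h, and 6.93, 6.89 and 6.93 at 48 h. ATG13 in 0.5% glucose read 5.98, 5.90 and 5.95 at 12 h, 6.04, 6.24 and 6.24 at 18 h, 6.45, 6.37 and 6.34 at 24 h, and 6.80, 6.86 and 6.81 at 48 h. This gene was called as rising at every step in both media, the only member so called in 2% glucose, and the media overlapped at 12 and 18 h. ATG13 was called higher at 12 h (0.15 ± 0.07; 0.55 on the spike-in scale) and not called at the other times, except that on the spike-in scale it was lower at 48 h (-0.58). That call rests on the first replicate of 2% glucose: without it the difference was 0.06 and was not called, and it was also lost without replicate 1 (0.13) or 3 (0.15) of 0.5% glucose.

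ATG17 (YLR423C) encodes the scaffold of starvation-induced autophagy. ATG17 in 2% glucose read 6.36, 7.18 and 7.08 at 12 h, 6.86, 7.20 and 7.07 at 18 h, 6.89, 6.95 and 7.27 at 24 h, and 6.37, 6.37 and 6.40 at 48 h. ATG17 in 0.5% glucose read 6.71, 6.79 and 6.74 at 12 h, 6.92, 6.96 and 6.74 at 18 h, 6.90, 6.99 and 6.87 at 24 h, and 6.97, 6.63 and 6.89 at 48 h. The first 2% array of 12 h lies below its fellows by more than any group of restricted arrays spans, and the media overlap at 12, 18 and 24 h. ATG17 was not called at 12 h (-0.13 ± 0.15; 0.27 on the spike-in scale), but was lower (-0.39) without that array. At 48 h it was higher in restricted culture (0.45 ± 0.15; -0.04 on the spike-in scale), where the 2% cultures had fallen by 0.66 since 24 h.

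ATG31 (YDR022C) encodes a subunit that binds Atg17 together with Atg29. ATG31 in 2% glucose read 8.19, 8.09 and 8.09 at 12 h, 8.03, 8.01 and 7.99 at 18 h, 8.28, 8.17 and 8.11 at 24 h, and 8.40, 8.41 and 8.43 at 48 h. ATG31 in 0.5% glucose read 7.35, 7.37 and 7.34 at 12 h, 7.49, 7.43 and 7.31 at 18 h, 7.52, 7.56 and 7.61 at 24 h, and 8.24, 8.38 and 8.49 at 48 h. Restricted arrays lay below the controls at 12, 18 and 24 h and overlapped them at 48 h. ATG31 was lower at those 3 times (-0.77 ± 0.06, -0.60 ± 0.06 and -0.62 ± 0.06), and the difference at 48 h was -0.04 ± 0.06. Its partner ATG29 was lower at 12 h (-0.56 ± 0.08) and higher at 24 h (0.40 ± 0.08) and 48 h (0.42 ± 0.08; -0.07 on the spike-in scale).

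ATG11 (YPR049C) encodes the scaffold that joins the kinase to cargo receptors in selective autophagy. ATG11 in 2% glucose read 7.49, 7.61 and 7.67 at 12 h, 7.65, 7.80 and 7.70 at 18 h, 7.90, 7.85 and 7.77 at 24 h, and 7.90, 8.03 and 7.999 at 48 h. ATG11 in 0.5% glucose read 7.31, 7.30 and 7.26 at 12 h, 7.68, 7.57 and 7.45 at 18 h, 7.90, 7.87 and 7.75 at 24 h, and 9.35, 9.39 and 9.26 at 48 h. The 3 restricted arrays of 48 h, at 9.26 or more, stand above every other array, none of which passes 8.03. ATG11 was lower at 12 h (-0.30 ± 0.06), where the spike-in scale gave 0.10, and 2.56-fold higher at 48 h (1.36 ± 0.06, adjusted p = 8.16e-15, in 3 of 3 arrays). The 48 h call held on the spike-in scale (0.87). The call at 18 h (-0.15 ± 0.06; 0.01 on the spike-in scale) was lost without replicate 2 (-0.15) or 3 (-0.10) of 0.5% glucose or replicate 2 (-0.11) or 3 (-0.16) of 2% glucose.

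**Figure D2:**
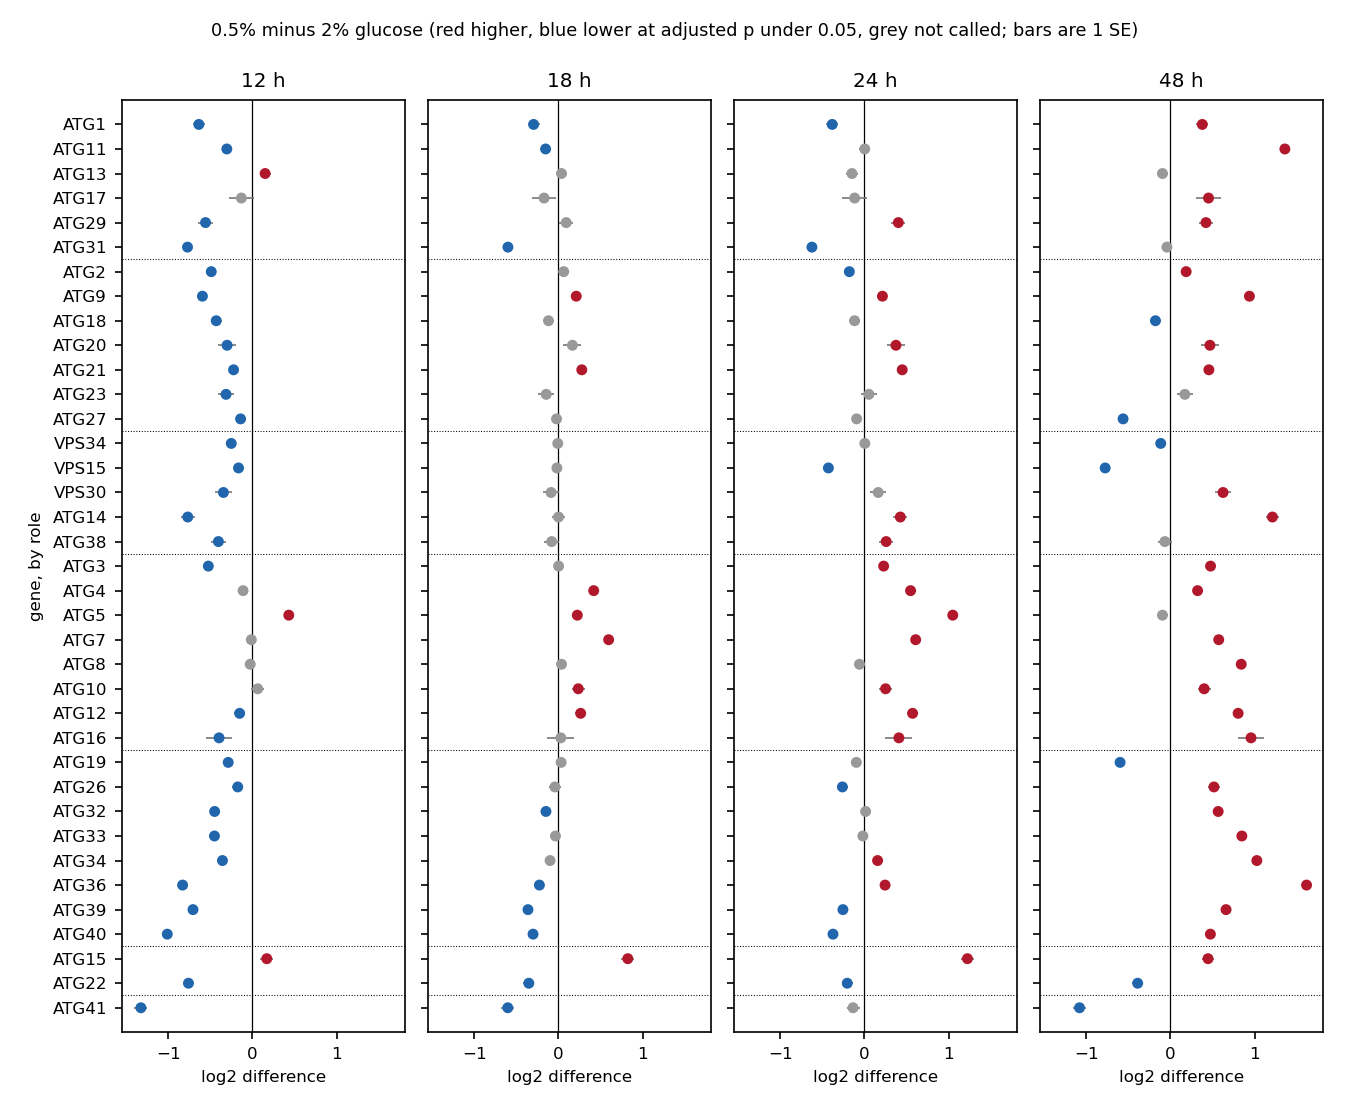
Log2 difference, 0.5% minus 2% glucose, of each of the 37 genes at 12, 18, 24 and 48 h (red higher, blue lower, grey not called, bars 1 SE; 3 arrays per group), grouped by role. Most points lie left of 0 at 12 h and right of it at 48 h, while a spike-in scale would move every 12 h point by 0.40 to the right and every 48 h point by 0.49 to the left.

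The 7 genes of membrane supply were all lower at 12 h (median -0.31; 0.09 on the spike-in scale). At 48 h, 4 were higher and 2 lower (median 0.19; -0.30 on the spike-in scale). ATG9 (YDL149W) encodes the transmembrane protein of the vesicles that seed the autophagosome. ATG9 in 2% glucose read 6.81, 6.91 and 6.93 at 12 h, 6.69, 6.77 and 6.77 at 18 h, 7.10, 7.01 and 7.12 at 24 h, and 7.63, 7.53 and 7.61 at 48 h. ATG9 in 0.5% glucose read 6.20, 6.29 and 6.38 at 12 h, 7.01, 6.92 and 6.93 at 18 h, 7.32, 7.23 and 7.31 at 24 h, and 8.48, 8.54 and 8.56 at 48 h. The arrays of the media did not overlap at any time: restricted cultures were the lower at 12 h and the higher at the other 3. ATG9 was lower at the first harvest (-0.59 ± 0.05), and its differences at the later 3 were 0.21 ± 0.05, 0.21 ± 0.05 and 0.94 ± 0.05. It rose at every step in 0.5% glucose, by 0.66 ± 0.05, 0.33 ± 0.05 and 1.24 ± 0.05, and the last step was called on the spike-in scale too (0.60).

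ATG2, which encodes the protein that moves lipid into the growing membrane, was lower at 12 h (-0.49 ± 0.06) and higher at 48 h (0.19 ± 0.06; -0.30 on the spike-in scale). Its lower call at 24 h (-0.18 ± 0.06; 0.09 on the spike-in scale) was lost without any one of 3 arrays: replicate 3 of 0.5% glucose (-0.16) and replicates 1 (-0.16) and 2 (-0.15) of 2% glucose. ATG18 and ATG21 encode proteins that bind the lipid made by the Vps34 kinase, and they parted after 12 h. At 12 h both were lower, with a difference of -0.22 ± 0.05 for ATG21 (0.18 on the spike-in scale). ATG21 was higher at 18 h (0.28 ± 0.05), 24 h (0.45 ± 0.05) and 48 h (0.46 ± 0.05; -0.03 on the spike-in scale). ATG18 was lower at 12 h (-0.43 ± 0.07) and 48 h (-0.18 ± 0.07), the latter lost without replicate 1 (-0.15) or 2 (-0.15) of 0.5% glucose. ATG20, for a sorting nexin, was higher at 24 h (0.37 ± 0.11) and 48 h (0.47 ± 0.11; -0.02 on the spike-in scale). Of the genes for the transport of Atg9, ATG27 was lower at 48 h (-0.56 ± 0.04) on both scales and ATG23 was lower at 12 h (-0.31 ± 0.09; 0.09 on the spike-in scale) and not called at 48 h (0.17 ± 0.09). The 12 h calls of ATG20 and ATG23 were lost without replicate 3 of 2% glucose (-0.20 and -0.18), and that of ATG20 also without replicate 2 of 2% (-0.22) or replicate 1 of 0.5% (-0.25).

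The lipid kinase complex makes phosphatidylinositol 3-phosphate, which marks the site where the autophagosome grows. All 5 of its genes were lower at 12 h (median -0.34; 0.06 on the spike-in scale). At 18 h limma called none of the 5, against 50.3% of all genes called in either direction. Their unadjusted p-values ran from 0.369 (ATG38) to 0.986 (ATG14). At 48 h, 2 were higher (ATG14 and VPS30) and 2 lower (VPS15 and VPS34), with a median of -0.07 (-0.56 on the spike-in scale). ATG14 (YBR128C) encodes the subunit that directs the kinase to autophagy rather than to vacuolar sorting. ATG14 in 2% glucose read 6.22, 6.33 and 6.27 at 12 h, 5.80, 6.01 and 5.97 at 18 h, 5.49, 5.56 and 5.34 at 24 h, and 4.75, 4.84 and 4.96 at 48 h. ATG14 in 0.5% glucose read 5.46, 5.44 and 5.62 at 12 h, 5.95, 5.95 and 5.88 at 18 h, 5.73, 5.96 and 5.98 at 24 h, and 5.98, 5.98 and 6.22 at 48 h. In 2% glucose ATG14 fell at every step (-0.35 ± 0.08, -0.46 ± 0.08 and -0.61 ± 0.08), while in 0.5% glucose it rose by 0.42 ± 0.08 from 12 to 18 h and was not called at the other steps. The order of the media thus turned: the differences at the 4 harvests, in order, were -0.77 ± 0.08, 0.00 ± 0.08 (not called), 0.43 ± 0.08 and 1.21 ± 0.08, and at the last restricted cultures held 2.31 times the control level. The calls at 24 and 48 h held on the spike-in scale (0.69 and 0.72).

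VPS34 (YLR240W) encodes the kinase itself, which also serves vacuolar protein sorting. VPS34 in 2% glucose read 7.71, 7.75 and 7.73 at 12 h, 7.68, 7.63 and 7.63 at 18 h, 7.80, 7.73 and 7.66 at 24 h, and 7.76, 7.76 and 7.76 at 48 h. VPS34 in 0.5% glucose read 7.50, 7.45 and 7.50 at 12 h, 7.61, 7.68 and 7.63 at 18 h, 7.71, 7.71 and 7.79 at 24 h, and 7.60, 7.65 and 7.68 at 48 h. The arrays of all 8 groups lie between 7.45 and 7.80, the narrowest range among the 37 genes. VPS34 was lower at 12 h (-0.25 ± 0.04; 0.15 on the spike-in scale) and at 48 h (-0.12 ± 0.04), and the 48 h call was lost without replicate 1 of 0.5% glucose (-0.09). VPS15 (YBR097W) encodes the regulatory subunit that anchors Vps34. VPS15 in 2% glucose read 6.83, 6.76 and 6.76 at 12 h, 6.85, 6.80 and 6.91 at 18 h, 7.43, 7.36 and 7.32 at 24 h, and 7.34, 7.43 and 7.36 at 48 h. VPS15 in 0.5% glucose read 6.56, 6.66 and 6.63 at 12 h, 6.90, 6.81 and 6.79 at 18 h, 7.01, 6.92 and 6.90 at 24 h, and 6.46, 6.69 and 6.65 at 48 h. The control cultures stepped up between 18 and 24 h (0.52 ± 0.06) and the restricted ones fell between 24 and 48 h (-0.34 ± 0.06). VPS15 was lower at 24 h (-0.43 ± 0.06) and 48 h (-0.77 ± 0.06), the latter on both scales; its 12 h call (-0.16 ± 0.06; 0.24 on the spike-in scale) was lost without replicate 1 of 0.5% glucose (-0.14). VPS30, the yeast counterpart of Beclin 1, was lower at 12 h (-0.34 ± 0.10) and higher at 48 h (0.62 ± 0.10); on the spike-in scale these were 0.06 and 0.13, and neither was called. ATG38, for a subunit that holds the complex together, was lower at 12 h (-0.40 ± 0.09) and higher at 24 h (0.26 ± 0.09), the latter lost without replicate 2 of 2% glucose (0.20).

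The conjugation genes attach Atg8 to the lipid of the growing membrane. Of their 8, 3 were lower and 1 higher at 12 h, and 5, 7 and 7 were higher and 0 lower at 18, 24 and 48 h. The median difference was -0.07, 0.23, 0.48 and 0.52 at the 4 times, and 0.33, 0.39, 0.75 and 0.03 on the spike-in scale. ATG8 (YBL078C) encodes the ubiquitin-like protein that coats the autophagosome and is the usual marker of autophagy induction. ATG8 in 2% glucose read 9.80, 9.87 and 9.90 at 12 h, 9.79, 9.84 and 9.81 at 18 h, 9.96, 9.99 and 10.06 at 24 h, and 9.94, 10.06 and 10.08 at 48 h. ATG8 in 0.5% glucose read 9.82, 9.83 and 9.84 at 12 h, 9.83, 9.88 and 9.85 at 18 h, 9.91, 9.91 and 10.01 at 24 h, and 10.95, 10.75 and 10.89 at 48 h. At 12, 18 and 24 h the media overlapped, and the 3 restricted arrays of 48 h, at 10.75 or more, then lay above every other array. ATG8 was not called at 12 h (-0.03 ± 0.05), 18 h (0.04 ± 0.05) or 24 h (-0.06 ± 0.05), values of 0.38, 0.20 and 0.21 on the spike-in scale, and was 1.79 times higher at 48 h (0.84 ± 0.05, adjusted p = 1.09e-12, in 3 of 3 arrays). On the spike-in scale the 48 h difference was 0.35 and was not called.

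ATG7 (YHR171W) encodes the activating enzyme of both conjugation systems. ATG7 in 2% glucose read 6.58, 6.69 and 6.72 at 12 h, 6.10, 6.09 and 6.09 at 18 h, 6.24, 6.30 and 6.23 at 24 h, and 6.70, 6.78 and 6.79 at 48 h. ATG7 in 0.5% glucose read 6.56, 6.68 and 6.71 at 12 h, 6.59, 6.68 and 6.80 at 18 h, 6.88, 6.80 and 6.90 at 24 h, and 7.24, 7.31 and 7.44 at 48 h. The media overlapped at 12 h, after which the controls dropped and recovered while restricted cultures stayed level to 18 h and then rose. ATG7 was higher by 0.60 ± 0.06 at 18 h, 0.61 ± 0.06 at 24 h and 0.57 ± 0.06 at 48 h, the first 2 on both scales (0.76 and 0.88). ATG5 (YPL149W) encodes the partner to which Atg12 is attached. ATG5 in 2% glucose read 7.46, 7.30 and 7.26 at 12 h, 7.86, 7.75 and 7.76 at 18 h, 7.29, 7.25 and 7.30 at 24 h, and 7.39, 7.32 and 7.30 at 48 h. ATG5 in 0.5% glucose read 7.83, 7.75 and 7.73 at 12 h, 8.18, 7.92 and 7.95 at 18 h, 8.34, 8.28 and 8.36 at 24 h, and 7.20, 7.25 and 7.28 at 48 h. Restricted cultures peaked at 24 h and controls at 18 h, and by 48 h ATG5 lay between 7.20 and 7.39 on all 6 arrays. ATG5 was higher at 12 h (0.43 ± 0.06), 18 h (0.22 ± 0.06) and 24 h (1.05 ± 0.06, 2.07-fold), and its 48 h difference was -0.10 ± 0.06. The fall from 24 to 48 h in 0.5% glucose (-1.09 ± 0.06) was called on both scales.

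ATG4 (YNL223W) encodes the protease that trims Atg8 before and after its attachment. ATG4 in 2% glucose read 6.69, 6.62 and 6.64 at 12 h, 6.44, 6.33 and 6.34 at 18 h, 6.44, 6.49 and 6.44 at 24 h, and 6.65, 6.66 and 6.62 at 48 h. ATG4 in 0.5% glucose read 6.58, 6.50 and 6.54 at 12 h, 6.73, 6.82 and 6.83 at 18 h, 7.03, 6.93 and 7.05 at 24 h, and 6.90, 6.92 and 7.08 at 48 h. Restricted arrays lay below the controls at 12 h and above them afterwards. ATG4 was not called at 12 h (-0.11 ± 0.05; 0.29 on the spike-in scale) and was higher at 18 h (0.42 ± 0.05), 24 h (0.55 ± 0.05) and 48 h (0.32 ± 0.05; -0.17 on the spike-in scale). ATG3, for the enzyme that hands Atg8 to its lipid, was lower at 12 h (-0.52 ± 0.05) and higher at 24 h (0.23 ± 0.05) and 48 h (0.48 ± 0.05; -0.01 on the spike-in scale). ATG10, for the enzyme that attaches Atg12 to Atg5, was higher at 18 h (0.24 ± 0.08), 24 h (0.25 ± 0.08) and 48 h (0.40 ± 0.08; -0.09 on the spike-in scale), and the 18 h call was lost without replicate 1 of 0.5% glucose (0.19). ATG12 differed by 0.57 ± 0.06 at 24 h and 0.80 ± 0.06 at 48 h; its lower call at 12 h (-0.15 ± 0.06; 0.25 on the spike-in scale) was lost without replicate 3 of 0.5% glucose (-0.11) or replicate 1 (-0.15) or 3 (-0.13) of 2% glucose. ATG16, whose product joins Atg12-Atg5 pairs, was higher at 48 h (0.96 ± 0.16). Its calls at 12 and 24 h were lost without single arrays: the 12 h call (-0.40 ± 0.16; 0.0066 on the spike-in scale) was lost without replicate 3 of 2% (-0.15) or replicate 1 (-0.36) or 2 (-0.37) of 0.5%. The 24 h call of ATG16 (0.41 ± 0.16) was lost without replicate 1 (0.40) or 2 (0.35) of 2% glucose or replicate 2 (0.37) or 3 (0.39) of 0.5%.

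**Figure D3:**
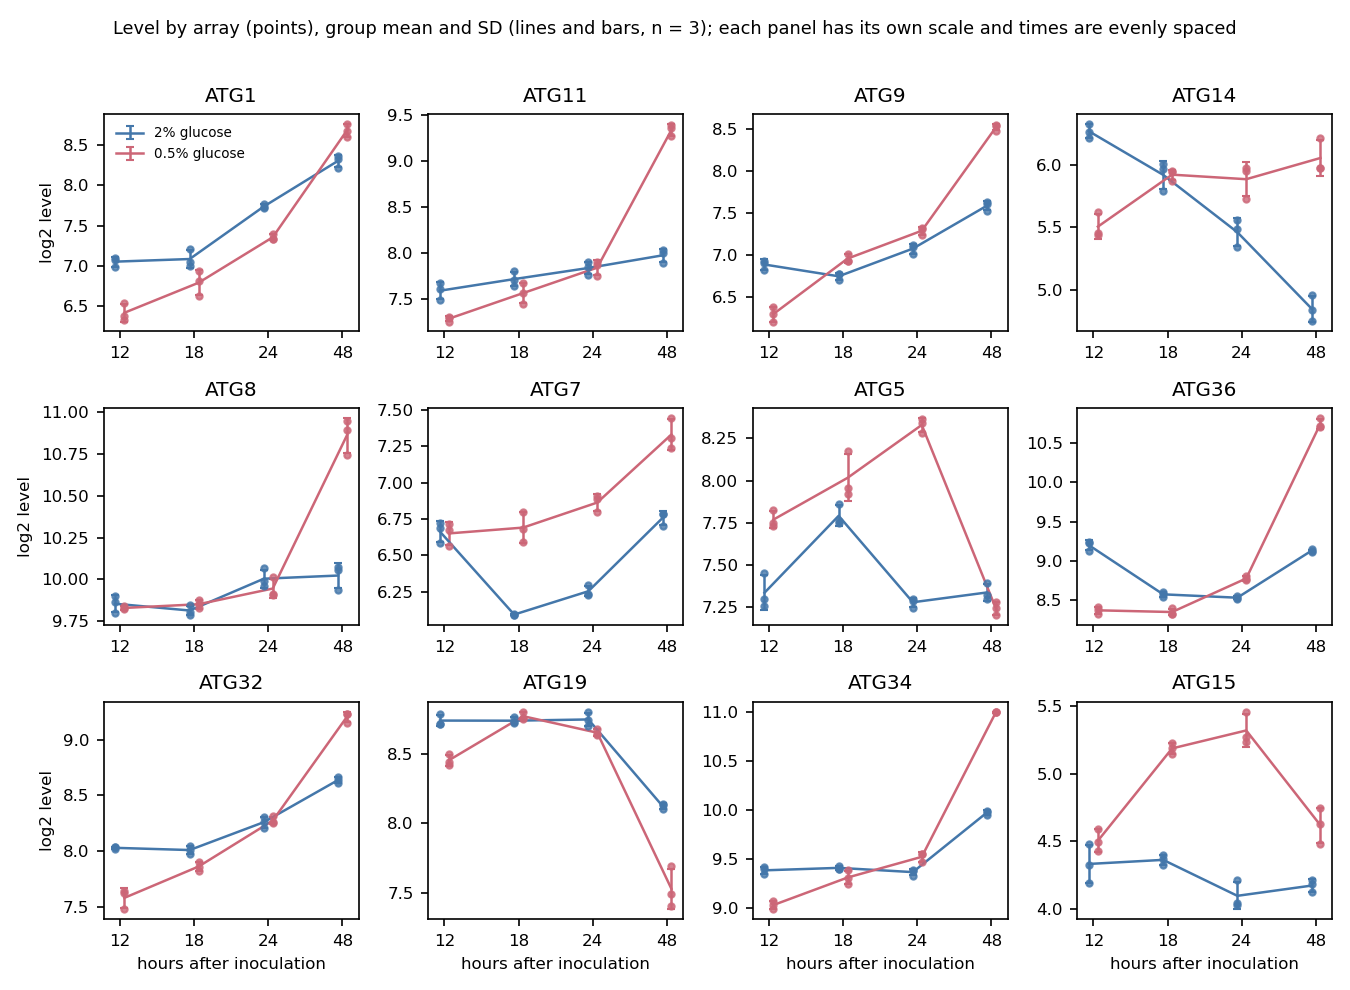
Log2 values of 12 autophagy genes on every array (points; lines join the means of 3 arrays, bars are SD) by hours after inoculation, evenly spaced, in 2% and 0.5% glucose; each panel has its own scale. ATG36, ATG11 and ATG34 climb steeply at 48 h in 0.5% glucose, ATG14 goes down throughout in 2% glucose, and ATG5 and ATG15 are highest in restricted cultures of 24 h.

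The selective cargo genes encode the receptors and helpers that choose what is degraded. All 8 were lower at 12 h (median -0.45; -0.05 on the spike-in scale), and at 48 h 7 were higher and 1 lower (median 0.61; 0.12 on the spike-in scale). ATG36 (YJL185C) encodes the receptor that marks peroxisomes for breakdown. ATG36 in 2% glucose read 9.23, 9.13 and 9.25 at 12 h, 8.61, 8.58 and 8.54 at 18 h, 8.56, 8.51 and 8.53 at 24 h, and 9.12, 9.15 and 9.13 at 48 h. ATG36 in 0.5% glucose read 8.32, 8.38 and 8.41 at 12 h, 8.40, 8.32 and 8.33 at 18 h, 8.81, 8.77 and 8.76 at 24 h, and 10.70, 10.72 and 10.82 at 48 h. Restricted arrays were the lowest of the series at 12 and 18 h and, at 10.70 or more, the highest at 48 h. ATG36 was lower at 12 h (-0.83 ± 0.04) and 18 h (-0.23 ± 0.04), and higher at 24 h (0.24 ± 0.04) and 48 h (1.62 ± 0.04, 3.06-fold, adjusted p = 4.26e-19, in 3 of 3 arrays). The 48 h call held on the spike-in scale (1.13). Between 24 and 48 h in 0.5% glucose, ATG36 rose by 1.97 ± 0.04, against 0.60 ± 0.04 in 2% glucose.

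The next genes serve mitophagy, the breakdown of mitochondria. ATG32 (YIL146C) encodes the receptor on the mitochondrial surface. ATG32 in 2% glucose read 8.03, 8.04 and 8.02 at 12 h, 8.05, 7.97 and 8.01 at 18 h, 8.31, 8.26 and 8.21 at 24 h, and 8.66, 8.64 and 8.62 at 48 h. ATG32 in 0.5% glucose read 7.48, 7.63 and 7.64 at 12 h, 7.91, 7.82 and 7.86 at 18 h, 8.31, 8.26 and 8.25 at 24 h, and 9.23, 9.23 and 9.15 at 48 h. Restricted cultures began below the controls, met them at 24 h and stood above them at 48 h. ATG32 was lower at 12 h (-0.45 ± 0.04) and 18 h (-0.15 ± 0.04), not called at 24 h (0.01 ± 0.04) and higher at 48 h (0.57 ± 0.04). On the spike-in scale the 18 h value was 0.01 and the 48 h value 0.08, and neither was called. ATG33 (YLR356W) encodes another mitochondrial outer membrane protein needed for mitophagy, mostly in stationary cells. ATG33 in 2% glucose read 9.36, 9.12 and 9.10 at 12 h, 9.15, 9.09 and 9.13 at 18 h, 9.24, 9.21 and 9.17 at 24 h, and 9.28, 9.29 and 9.27 at 48 h. ATG33 in 0.5% glucose read 8.77, 8.72 and 8.73 at 12 h, 9.08, 9.15 and 9.03 at 18 h, 9.13, 9.21 and 9.23 at 24 h, and 10.05, 10.14 and 10.19 at 48 h. The control level stayed between 9.09 and 9.36 on all 12 arrays, while the restricted arrays went from 8.72 at the lowest to 10.19 at the highest. ATG33 differed by -0.45 ± 0.06 at 12 h, was not called at 18 or 24 h, and differed by 0.85 ± 0.06 at 48 h (0.36 on the spike-in scale, not called).

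The endoplasmic reticulum has a pair of receptors. ATG40 (YOR152C) encodes the receptor of its cortical part. ATG40 in 2% glucose read 9.26, 9.18 and 9.24 at 12 h, 8.46, 8.44 and 8.48 at 18 h, 8.53, 8.52 and 8.47 at 24 h, and 8.66, 8.59 and 8.71 at 48 h. ATG40 in 0.5% glucose read 8.13, 8.28 and 8.23 at 12 h, 8.17, 8.17 and 8.14 at 18 h, 8.09, 8.14 and 8.17 at 24 h, and 9.05, 9.07 and 9.25 at 48 h. Control arrays of 12 h were the highest of the controls, at 9.18 to 9.26, and restricted arrays stayed between 8.09 and 8.28 until 24 h. ATG40 was 2.01-fold lower at 12 h (-1.01 ± 0.05), a call that held on the spike-in scale (-0.61), and lower at 18 h (-0.30 ± 0.05) and 24 h (-0.37 ± 0.05). Its higher value at 48 h (0.47 ± 0.05) was -0.02 on the spike-in scale. ATG39 (YLR312C) encodes the receptor of the nuclear envelope. ATG39 in 2% glucose read 9.87, 9.89 and 9.87 at 12 h, 9.61, 9.66 and 9.61 at 18 h, 9.67, 9.64 and 9.69 at 24 h, and 10.14, 10.25 and 10.20 at 48 h. ATG39 in 0.5% glucose read 9.11, 9.20 and 9.19 at 12 h, 9.28, 9.24 and 9.27 at 18 h, 9.41, 9.39 and 9.43 at 24 h, and 10.82, 10.85 and 10.90 at 48 h. The media did not overlap at any time. ATG39 was lower at 12 h (-0.70 ± 0.04), 18 h (-0.36 ± 0.04) and 24 h (-0.26 ± 0.04; 0.01 on the spike-in scale) and higher at 48 h (0.66 ± 0.04; 0.17 and not called on the spike-in scale).

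The receptors of the Cvt pathway parted. ATG19 (YOL082W) encodes the Cvt receptor for the vacuolar hydrolases Ape1 and Ams1, and ATG34 (YOL083W) its relative, which carries Ams1 under starvation; the genes are next to each other on chromosome XV. ATG19 in 2% glucose read 8.72, 8.72 and 8.79 at 12 h, 8.77, 8.72 and 8.73 at 18 h, 8.80, 8.75 and 8.70 at 24 h, and 8.10, 8.14 and 8.13 at 48 h. ATG19 in 0.5% glucose read 8.42, 8.50 and 8.44 at 12 h, 8.76, 8.81 and 8.75 at 18 h, 8.64, 8.68 and 8.65 at 24 h, and 7.40, 7.49 and 7.69 at 48 h. All arrays of 48 h lay below those of 24 h, and the restricted ones lay lowest. ATG19 was lower at 12 h (-0.29 ± 0.05; 0.12 on the spike-in scale), not called at 18 or 24 h, and lower at 48 h (-0.60 ± 0.05) on both scales. ATG34 in 2% glucose read 9.34, 9.40 and 9.41 at 12 h, 9.39, 9.43 and 9.40 at 18 h, 9.38, 9.39 and 9.33 at 24 h, and 9.98, 9.95 and 9.99 at 48 h. ATG34 in 0.5% glucose read 8.99, 9.02 and 9.07 at 12 h, 9.38, 9.30 and 9.24 at 18 h, 9.55, 9.46 and 9.55 at 24 h, and 10.997, 11.004 and 10.997 at 48 h. ATG34 went the other way: all arrays of 48 h lay above those of 24 h, and the restricted ones lay highest. ATG34 was lower at 12 h (-0.35 ± 0.04; 0.05 on the spike-in scale) and higher at 24 h (0.16 ± 0.04) and 48 h (1.02 ± 0.04, 2.04-fold), the latter on both scales. Between 24 and 48 h in 0.5% glucose, ATG19 fell (-1.13 ± 0.05) and ATG34 rose (1.48 ± 0.04), and both calls held on the spike-in scale (-1.76 and 0.85). Their difference was not tested. The last of the group, ATG26, encodes a sterol glucosyltransferase with a part in peroxisome breakdown in the yeast Komagataella phaffii. ATG26 was lower at 24 h (-0.26 ± 0.07; 0.01 on the spike-in scale) and higher at 48 h (0.52 ± 0.07), and its 12 h call (-0.17 ± 0.07; 0.23 on the spike-in scale) was lost without replicate 1 of 0.5% (-0.13) or replicate 2 (-0.14) or 3 (-0.09) of 2% glucose.

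The genes for breakdown in the vacuole went opposite ways. ATG15 (YCR068W) encodes the lipase that opens the delivered membrane. ATG15 in 2% glucose read 4.48, 4.32 and 4.19 at 12 h, 4.37, 4.32 and 4.40 at 18 h, 4.03, 4.05 and 4.21 at 24 h, and 4.12, 4.21 and 4.18 at 48 h. ATG15 in 0.5% glucose read 4.43, 4.50 and 4.59 at 12 h, 5.19, 5.14 and 5.23 at 18 h, 5.27, 5.46 and 5.23 at 24 h, and 4.63, 4.48 and 4.74 at 48 h. Restricted arrays of 18 and 24 h, at 5.14 to 5.46, stood above all others. ATG15 was higher at 18 h (0.82 ± 0.07), 24 h (1.22 ± 0.07, 2.33-fold, on both scales) and 48 h (0.45 ± 0.07; -0.04 on the spike-in scale). The 12 h call (0.17 ± 0.07) was lost without replicate 2 (0.17) or 3 (0.10) of 2% glucose or replicate 2 (0.18) or 3 (0.13) of 0.5%. ATG22 (YCL038C) encodes an exporter that returns amino acids from the vacuole. ATG22 in 2% glucose read 8.17, 8.19 and 8.17 at 12 h, 7.71, 7.70 and 7.62 at 18 h, 7.62, 7.72 and 7.48 at 24 h, and 8.24, 8.28 and 8.19 at 48 h. ATG22 in 0.5% glucose read 7.25, 7.43 and 7.57 at 12 h, 7.41, 7.28 and 7.29 at 18 h, 7.45, 7.43 and 7.33 at 24 h, and 7.82, 7.87 and 7.85 at 48 h. Restricted arrays lay below the controls at each harvest. ATG22 was the only member lower at all 4 times, as were 7.76% of all genes: -0.76 ± 0.07, -0.35 ± 0.07, -0.20 ± 0.07 and -0.39 ± 0.07. Scaled to the spike-ins, 0 members were lower at all 4 times by limma's adjusted or unadjusted p (0.642% of all genes). Its 24 h value was 0.06 on the spike-in scale, and that call was lost without replicate 2 of 2% (-0.15) or replicate 3 of 0.5% glucose (-0.17).

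ATG41 (YPL250C) encodes a partner of Atg9 that is induced in nitrogen starvation. ATG41 in 2% glucose read 7.59, 7.46 and 7.55 at 12 h, 7.46, 7.47 and 7.36 at 18 h, 6.54, 6.61 and 6.60 at 24 h, and 7.30, 7.42 and 7.48 at 48 h. ATG41 in 0.5% glucose read 6.38, 6.22 and 6.04 at 12 h, 6.91, 6.78 and 6.79 at 18 h, 6.55, 6.51 and 6.28 at 24 h, and 6.22, 6.37 and 6.37 at 48 h. The controls dipped at 24 h and recovered, and the restricted arrays lay below them at 12, 18 and 48 h. ATG41 was 2.5-fold lower at 12 h (-1.32 ± 0.08) and 2.11-fold lower at 48 h (-1.08 ± 0.08), both called on the spike-in scale, lower at 18 h (-0.60 ± 0.08), and not called at 24 h (-0.13 ± 0.08). It and ATG40 were the 2 members at least 2-fold lower at 12 h (2.84% of all genes). At 24 h the 2 members at least 2-fold higher were ATG5 and ATG15 (1.49%). At 48 h the 4 at least 2-fold higher were ATG36, ATG11, ATG14 and ATG34 (8.72%), and ATG41 alone was at least 2-fold lower (10.6%).

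Whether the difference between media changed with time was tested directly. By limma's F test over the 4 times, 37 of the 37 members were called, as were 91.7% of all genes, and on the spike-in scale 14 members were called, against 60.5%. Without the 6 arrays of 48 h, a setting chosen after the data were seen, 7 of the calls were lost: ATG8, ATG10, ATG17, ATG23, ATG26, ATG27 and ATG31. The difference at 48 h minus that at 12 h was called above 0 for 32 members (43.8% of all genes) and below 0 for 5 (36.1%), namely ATG5, ATG13, ATG19, ATG27 and VPS15. Its median was 0.69 over the members and 0.09 over all genes, and -0.20 and -0.80 on the spike-in scale, where 3 members were called above 0 (3.21% of all genes) and 6 below (57.1%). It was at least 2-fold for 11 members, against 12% of all genes. ATG36 (2.44 ± 0.06), ATG14 (1.98 ± 0.12) and ATG11 (1.66 ± 0.09) led, and these 3 were also called above 0 on the spike-in scale, where VPS34 was called below 0 (-0.76 in place of 0.13 ± 0.06). By role the median was 1.33 for selective cargo, 0.85 for the kinase complex, 0.72 for conjugation, 0.67 for membrane supply and 0.34 for the lipid kinase complex, and 0.44, -0.04, -0.17, -0.22 and -0.56 on the spike-in scale. These values share their arrays with the comparisons at 12 and 48 h. Without the first replicate of 2% glucose at 12 h, the counts were 29 above and 4 below 0, with a median of 0.81.

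Read from harvest to harvest in 0.5% glucose, 27 members rose and 0 fell from 12 to 18 h, against 30% and 30.2% of all genes, with a median of 0.25 (0.06 on the spike-in scale). Scaled to the spike-ins, 0 members rose (2.11%) or fell (12.5%) in that step, with 5 rising and 0 falling by limma's unadjusted p. From 18 to 24 h, 18 rose (24.6%) and 1 fell (24.1%), with a median of 0.15 (0.00 on the spike-in scale). There too, 0 rose (0.881%) or fell (4.42%) on the spike-in scale, with 0 and 1 by the unadjusted p. On the deposited scale the 1 that fell was ATG41 (-0.38 ± 0.08). From 24 to 48 h, 20 rose (45.8%) and 8 fell (39.4%), with a median of 0.43 (-0.20 on the spike-in scale, where 6 rose and 15 fell, against 10.4% and 55.6%). The 6 that rose at least 2-fold in that step (12.3% of all genes) were ATG36, ATG11, ATG34, ATG39, ATG1 and ATG9, all called on the spike-in scale too. The 2 that fell at least 2-fold (13%) were ATG19 and ATG5. By role, the median of that last step was 0.96 for selective cargo, 0.62 for the kinase complex, 0.49 for conjugation, -0.02 for membrane supply and -0.09 for the lipid kinase complex, and 0.33, -0.01, -0.14, -0.66 and -0.73 on the spike-in scale. In 2% glucose, 5 rose and 13 fell from 12 to 18 h (30.5% and 37.9% of all genes), 12 rose and 6 fell from 18 to 24 h (25.2% and 24.5%), and 16 rose and 5 fell from 24 to 48 h (31.5% and 30.4%). The medians in 2% glucose were -0.06, 0.04 and 0.09, and 0.00, -0.22 and 0.21 on the spike-in scale. There 1 rose and 2 fell in the first step (12.1% and 8.63% of all genes), 0 and 3 in the second (0.606% and 8.64%), and 9 and 0 in the third (8.57% and 3.1%); by limma's unadjusted p, 0 rose in the second and 3 fell in the third. The steps in the 2 media were not tested against each other. Members called as rising at all 3 steps numbered 11 in 0.5% glucose (7.4% of all genes) and 1, ATG13, in 2% glucose (2.9%). The 11 are ATG1, ATG2, ATG9, ATG10, ATG11, ATG12, ATG13, ATG26, ATG32, ATG34 and ATG39. Scaled to the spike-ins, 0 members rose at all 3 steps in either medium by limma's adjusted or unadjusted p (0.0551% of all genes in 0.5% glucose and 0.0918% in 2%). In the 18 to 24 h step of 0.5% glucose, the calls of ATG10, ATG13, ATG18, ATG26, ATG31 and ATG7 were each lost without 1 array, with values from 0.10 to 0.21. In the 12 to 18 h step so were those of ATG2, ATG12 and ATG39, with values from 0.07 to 0.16, and in the 24 to 48 h step that of VPS34. In 2% glucose, the calls of ATG9, ATG21 and ATG26 were lost in this way from 12 to 18 h. So were those of ATG7, ATG18, ATG27, ATG29 and ATG31 from 18 to 24 h, and those of ATG40 and VPS30 from 24 to 48 h.

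**Figure D4:**
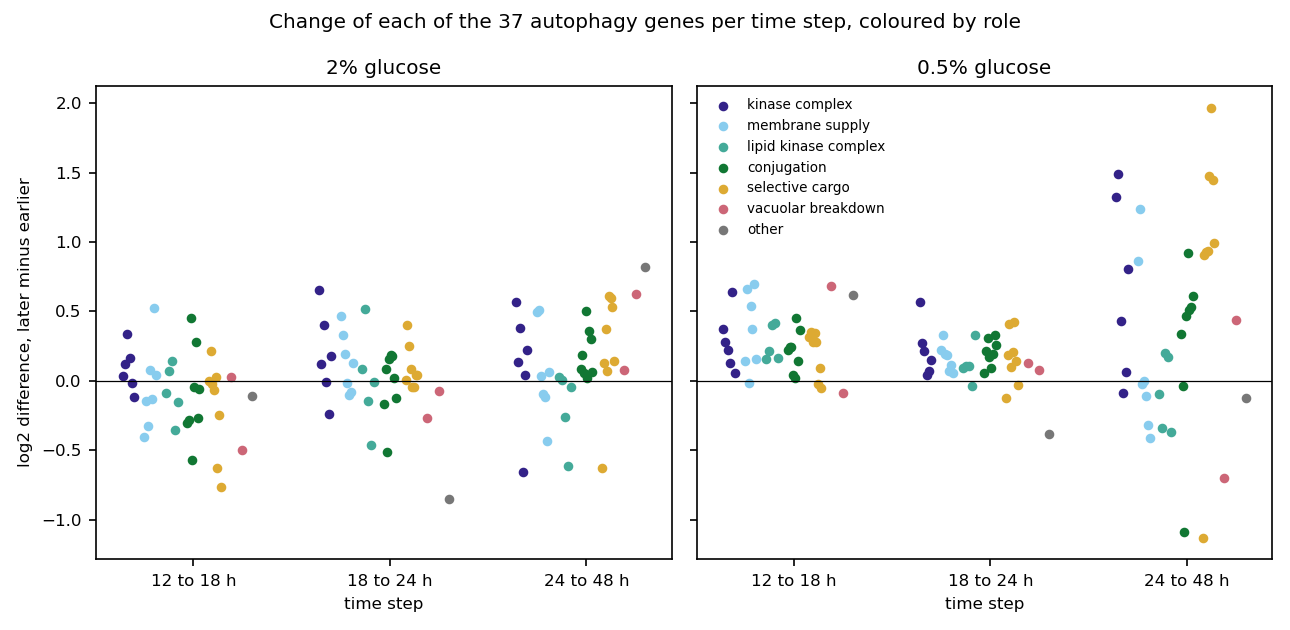
Log2 difference, later minus earlier harvest, of each of the 37 genes (points, coloured by role) for the 3 time steps in 2% glucose (left) and 0.5% glucose (right). In 0.5% glucose most points lie above 0 at the first 2 steps and spread from -1.13 (ATG19) to 1.97 (ATG36) at the last, where a spike-in scale would move every point down by 0.63.

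Genes around the ATG core, in lists chosen with earlier results of these data known, moved in both directions. Their counts are on the deposited scale and stand against 32.2%, 25.5%, 31.6% and 46% of all genes higher and 41.2%, 24.8%, 31.4% and 37.8% lower at 12, 18, 24 and 48 h, which several of them are near. The cargo genes of the Cvt pathway differed among themselves. APE1, for the aminopeptidase carried by Atg19, was lower at all 4 times on the deposited scale (-0.45, -0.19, -0.42 and -2.05), as were 7.76% of all genes. The spike-in scale adds 0.40, 0.16 and 0.27 to the values of 12, 18 and 24 h. AMS1, for the mannosidase that Atg34 also carries, was lower at 12 h (-0.33, and 0.07 on the spike-in scale) and higher at 24 h (0.33) and 48 h (0.72). APE4, for a further Cvt aminopeptidase, was higher at 18 h (0.17) and 24 h (0.29) and lower at 48 h (-0.26). Of 19 genes for membrane traffic and fusion with the vacuole, 5, 6, 7 and 12 were higher and 7, 2, 2 and 5 lower at 12, 18, 24 and 48 h. VTI1, for a fusion SNARE, was higher at the 4 times (0.66, 0.65, 0.79 and 0.71). So was PEP5, for a tethering subunit (0.51, 0.52, 0.42 and 0.97), whereas PEP3, for another subunit of the same tether, was lower at 48 h (-0.93). Of 8 vacuolar hydrolase and exporter genes, 1, 1, 2 and 4 were higher and 6, 2, 4 and 2 lower. PHO8, for the vacuolar alkaline phosphatase used to assay autophagy, was lower at 48 h (-0.76), AVT6, for an amino acid exporter, was higher (0.89), and CPS1, for carboxypeptidase S, was higher at 12 h (0.66) and lower at 48 h (-0.37).

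Regulators of ATG transcription were as mixed. Among these 10 genes, those higher numbered 3, 3, 3 and 5, and those lower 5, 3, 6 and 5, at 12, 18, 24 and 48 h. UME6, which encodes the DNA-binding subunit of the complex that represses ATG8, was higher at the 4 times on the deposited scale (0.54, 0.21, 0.49 and 0.45), the last being -0.04 on the spike-in scale. PHO23, which encodes a repressor of ATG9 transcription, was lower at the 4 times on the deposited scale (-0.93, -0.59, -0.54 and -0.48), as were 7.76% of all genes. RPH1, which encodes a repressor of several ATG genes, was lower at 12 h (-0.80) and higher at 48 h (0.74). GLN3, for an activator under nitrogen limitation, went from -0.23 at 12 h (0.18 on the spike-in scale) to 1.21 at 48 h. The stress activators parted, with MSN2 at 1.27 and MSN4 at -2.75 at 48 h. Of 16 genes for the nutrient kinases, 1, 3, 3 and 9 were higher and 10, 6, 6 and 4 lower at the 4 times. TOR1, for a TORC1 kinase, was lower at 12 h (-0.36) and higher at 48 h (0.47), as was RIM15, for a kinase that promotes entry into stationary phase (-0.48 and 0.45). On the spike-in scale the values of TOR1 were 0.04 and -0.02, those of RIM15 -0.08 and -0.04, and none of these was called. LST8, for a subunit shared by both TOR complexes, was lower at both (-0.87 and -1.05). The median of each list at 12 h was -0.33 for the Cvt cargo, -0.08 for traffic and fusion, -0.24 for hydrolases and exporters, -0.10 for the transcription regulators and -0.22 for the nutrient kinases, and each of these was above 0 on the spike-in scale (0.07, 0.32, 0.16, 0.30 and 0.19). At 48 h, in the same order, the medians were -0.26, 0.31, 0.09, -0.005 and 0.29, and all were below 0 on the spike-in scale (-0.75, -0.18, -0.40, -0.50 and -0.20).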

How the data were processed

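The table of log2 values was used as deposited by the authors. From the values themselves, it had been quantile normalized over all 10928 probe sets, since the sorted columns differed by at most 0.0095. Per the submitters' processing notes Partek was used, with no version; the sources used here do not give the log base, background correction or probe summary, and base 2 is taken from the range of the values, 0.598 to 12.6. Of the probe sets, 5498 are annotated to 1 S. cerevisiae gene and cover 5449 genes; for the 47 genes with several, the one with the highest mean was kept. Names came from the platform annotation and locus tags from RefSeq.

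Groups were taken from the labels. limma 3.58.1 in R 4.3.3 fitted 1 mean for each of the 8 groups on all 24 arrays, with moderated statistics and Benjamini-Hochberg adjustment over all genes within a comparison; the labels call the triplicates biological and say no more of them, so p-values measure the spread between these arrays. Every member is named, and a panel of 14, with the 3 highest and 3 lowest called differences of each glucose comparison and ATG34, which was added after its values were seen, is given on every array. Other lists show up to 4 examples, chosen mainly by the moderated statistic, except that more are named among the transcription regulators. The members and lists were chosen with earlier results of these data known.

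Deviations of same-numbered replicates from their group means were correlated across genes, with a rule of above 0.1 in every pair. At 12, 18 and 24 h the media met that rule, with correlations of 0.11 to 0.37. At 48 h they did not, with 0.10, 0.16 and 0.07. Between harvests, only the 12 to 18 h step in 2% glucose met it (0.46, 0.15 and 0.30). A replicate block was therefore an alternative, beside other normalizations, a spike-in scale, a filter on dim probe sets and leaving out each array. Coordinates and sequences were not used here.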

Additional observations from a re-analysis of the deposited data

Results flagged for a closer look

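The difference between media was itself tested for change with time, and every one of the 37 autophagy genes passed that test, as did 91.7% of all genes. Each difference at 48 h minus that at 12 h is therefore listed, on the deposited log2 scale. In the kinase complex it was 1.66 for ATG11, 1.01 for ATG1, 0.98 for ATG29, 0.73 for ATG31, 0.58 for ATG17 and -0.25 for ATG13. Among the genes of membrane supply it was 1.53 for ATG9, 0.77 for ATG20, 0.68 for ATG21, 0.67 for ATG2, 0.48 for ATG23, 0.25 for ATG18 and -0.42 for ATG27. In the lipid kinase complex it was 1.98 for ATG14, 0.97 for VPS30, 0.34 for ATG38, 0.13 for VPS34 and -0.61 for VPS15. Among the conjugation genes it was 1.35 for ATG16, 0.998 for ATG3, 0.95 for ATG12, 0.86 for ATG8, 0.58 for ATG7, 0.43 for ATG4, 0.34 for ATG10 and -0.53 for ATG5. Among the selective cargo genes it was 2.44 for ATG36, 1.48 for ATG40, 1.38 for ATG34, 1.36 for ATG39, 1.30 for ATG33, 1.01 for ATG32, 0.69 for ATG26 and -0.31 for ATG19. For vacuolar breakdown it was 0.37 for ATG22 and 0.27 for ATG15. The remaining value was 0.24 for ATG41. The calls of ATG13, ATG15, ATG17, ATG18, ATG38, ATG41 and VPS34 were each lost when 1 array was left out, with the values -0.16 (ATG13) without the first replicate of 2% glucose at 12 h, 0.20 to 0.25 (ATG15), 0.43 (ATG17) without the second replicate of 2% glucose at 12 h, 0.17 and 0.19 (ATG18), 0.26 and 0.28 (ATG38), 0.16 to 0.25 (ATG41) and 0.12 to 0.14 (VPS34). On the spike-in scale ATG11, ATG14 and ATG36 remained above 0 and ATG5, ATG13, ATG19, ATG27 and VPS15 below it by the test. Groups of 3 arrays were not tested for outlying samples.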

How the results depend on the processing

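The 444 values of single autophagy genes were recomputed under every alternative, which gave 7252 values: 6783 kept their side of the threshold, 337 kept the direction and lost the call, 65 gained one, and 67 changed direction with a call under at least 1 of the settings compared. Among the 6783 were 140 values called under neither setting whose sign also differed, 59 of them on the spike-in scale. Of the 337 lost calls, 165 came from the spike-in scale, with its constant and its wider SE, and 139 from leaving out 1 array. All 67 that changed direction were on the spike-in scale, where the cause is the constant added to each comparison. At 12 h these values were 0.099 (ATG11), 0.25 (ATG12), 0.0066 (ATG16), 0.12 (ATG19), 0.10 (ATG20), 0.18 (ATG21), 0.089 (ATG23), 0.23 (ATG26), 0.26 (ATG27), 0.047 (ATG34), 0.24 (VPS15), 0.059 (VPS30) and 0.15 (VPS34). At 18 h they were 0.0087 (ATG11) and 0.013 (ATG32). At 24 h they were 0.088 (ATG2), 0.063 (ATG22), 0.0053 (ATG26) and 0.012 (ATG39). At 48 h they were -0.11 (ATG1), -0.090 (ATG10), -0.044 (ATG15), -0.038 (ATG17), -0.30 (ATG2), -0.022 (ATG20), -0.034 (ATG21), -0.068 (ATG29), -0.014 (ATG3), -0.17 (ATG4) and -0.016 (ATG40). For the 48 h difference minus that at 12 h they were -0.56 (ATG10), -0.62 (ATG15), -0.31 (ATG17), -0.64 (ATG18), -0.22 (ATG2), -0.12 (ATG20), -0.21 (ATG21), -0.52 (ATG22), -0.41 (ATG23), -0.20 (ATG26), -0.16 (ATG31), -0.56 (ATG38), -0.46 (ATG4), -0.65 (ATG41), -0.31 (ATG7), -0.027 (ATG8) and -0.76 (VPS34). For the 18 to 24 h step in 2% glucose they were -0.068 (ATG18), -0.13 (ATG27), -0.081 (ATG31), -0.0090 (ATG32), -0.099 (ATG7) and -0.068 (ATG8). For the 12 to 18 h step in 0.5% glucose they were -0.043 (ATG12), -0.044 (ATG2), -0.028 (ATG27), -0.094 (ATG39) and -0.032 (VPS34). For the 18 to 24 h step in 0.5% glucose the value was -0.0065 (ATG39). For the 24 to 48 h step in 0.5% glucose they were -0.12 (ATG10), -0.099 (ATG12), -0.20 (ATG13), -0.021 (ATG16), -0.19 (ATG22), -0.57 (ATG29), -0.30 (ATG3) and -0.17 (ATG7). On the same scale the members called higher and lower, with their median, were 3 and 2 with 0.059 at 12 h and 2 and 0 with 0.14 at 18 h. They were 10 and 0 with 0.28 at 24 h, 4 and 11 with -0.038 at 48 h, and 3 and 6 with -0.20 for the change from 12 to 48 h. In 2% glucose they were 1 and 2 for the first step, 0 and 3 with -0.22 for the second, and 9 and 0 with 0.21 for the third. In 0.5% glucose they were 0 and 0 with 0.058, then 0 and 0 with 0.0007, then 6 and 15 with -0.20, and the F test called 14 members. Centring on the array median or fitting only the arrays compared left 1 member higher at 12 h in place of 3; the cause was not tested. Leaving out each array in turn gave 1 to 3 members higher at 12 h and a median from -0.39 (without the first replicate of 2% glucose) to -0.26 (without the third), a median of 0.67 to 0.81 for the change from 12 to 48 h, and 0 to 1 members lower in the 12 to 18 h step of 0.5% glucose. With the replicate block the counts higher and lower were 3 and 29 at 12 h, 8 and 9 at 18 h, 16 and 9 at 24 h, and 25 and 7 at 48 h, so the block moved no count by over 1.5 times. Quantile normalization over the tested probe sets, the filter on dim probe sets, the trended robust fit and the mean of probe sets moved no count by over 1.5 times either. The number of arrays, 3 a group, limits the precision. The search for motifs in the promoters was not run, since no promoter sequences were used here.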
